A study of Mus musculus with 12 samples.

Results

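ATP-binding cassette (ABC) transporter genes were followed in fat and liver of mice with and without CD301b-positive mononuclear phagocytes. A gene was taken where its symbol was Abc, a letter from a to g, a number and at most 1 further letter, and where a probe of the array carried that symbol alone, which gave 48 genes of 22180. RNA was measured on an Affymetrix mouse gene array in liver, inguinal white fat and epididymal white fat of male Mgl2-DTR mice and of age-matched male wild-type mice, all on the C57BL/6N background. In Mgl2-DTR mice the Mgl2 gene, which encodes the lectin CD301b, drives a receptor for diphtheria toxin, so that the toxin kills CD301b-positive cells, while wild-type mice keep them. Every mouse of both genotypes was given toxin at 500 ng, repeated each 3 days, and tissue was taken on day 10. Each of the 6 groups, 3 tissues by 2 genotypes, had 2 arrays. The receptor acts in any cell that uses Mgl2, not in macrophages alone.

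ABC proteins use the energy of ATP to move lipids, sterols, bile salts, drugs, peptides and metal complexes across membranes. Most sit in the plasma membrane, while others work in peroxisomes, mitochondria or lysosomes, and the ABCE and ABCF members carry no membrane part and act in translation. In liver the family is best known for forming bile at the canalicular membrane, and in macrophages for passing cholesterol on to high-density lipoprotein.

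In fat Mgl2 itself matched the labels. It stood at 4.25 and 4.19 in Mgl2-DTR against 7.46 and 7.22 in wild-type epididymal fat, and at 4.12 and 4.72 against 7.07 and 7.36 in inguinal fat. In liver it lay between 4.03 and 4.59 in all 4 arrays, under 5.71, the log2 level used here as the filter for dim genes. There Mgl2 overlapped between genotypes and could not show whether CD301b-positive cells were lost. Array medians ran from 5.19 to 5.28. All 8 adipocyte markers lay above the filter level in both fat depots and all 10 hepatocyte markers did so in liver. A pair of inguinal arrays, Mgl2-DTR replicate 1 and wild-type replicate 2, were high in skeletal muscle genes, with marker means of 9.94 and 10.41 against 6.49 and 6.62 in the others. Epididymal Mgl2-DTR replicate 2 was high in genes of the epididymal duct and testis (10.49 against 5.16 to 5.31 in the other 3 arrays), and epididymal wild-type replicate 1 was highest in macrophage genes (10.50 against 9.06 to 9.85). With 2 arrays in each group precision is low, and an exact permutation test of 2 against 2 cannot go below p = 0.333. The labels do not say beyond the word mouse that replicates are separate animals, so p-values reflect only how far these arrays spread. Each change below is the log2 level in Mgl2-DTR arrays less that in wild-type arrays, given with a standard error (SE), and passing means a limma p-value under 0.05 after Benjamini-Hochberg adjustment over all genes tested.

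Of the 48 genes, 38 exceeded the filter level as a mean of at least 1 tissue and were tested for a change with depletion. The filter level was exceeded in liver by 35, in inguinal fat by 32 and in epididymal fat by 31, and in all 3 tissues by 28. Of all 22180 genes, 11170, 11417, 11391 and 9915 did so in the same order. In liver alone 6 ABC genes did so, and in both fat depots but not liver 3 did so, beside 857 and 1040 of all 22180 genes. The 10 others were dim in every tissue, namely Abcc12, Abcb5, Abcc8, Abca4 and Abca12 to Abca17, which is a statement about these probes in these tissues. The heatmap below sets each gene against its own mean, since levels of different probes cannot be compared with each other.

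**Figure D1:**
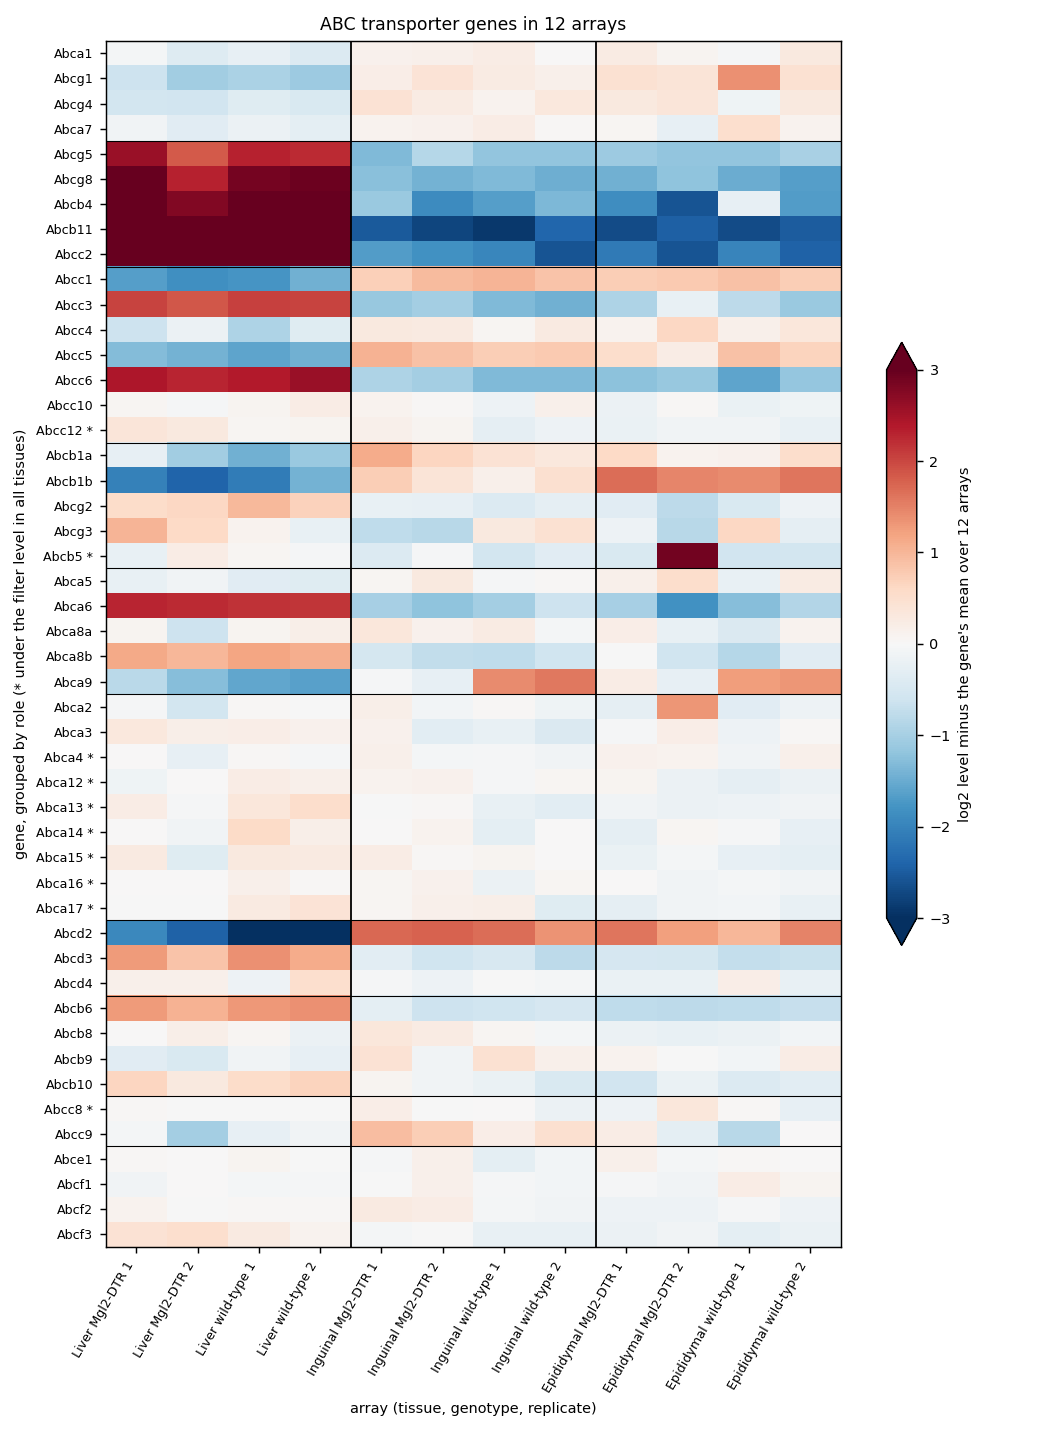
Log2 level of each of the 48 ABC genes in each of the 12 arrays, minus that gene's mean over the 12 arrays (red higher, blue lower), with genes grouped by role and the 4 arrays of each tissue side by side. Liver stands apart from fat for most coloured genes, while within fat Abca9 is lower in the 4 Mgl2-DTR arrays than in the 4 wild-type arrays; asterisks mark the 10 genes under 5.71 in all tissues.

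Tissue set the ABC genes apart far more often than depletion did. Between liver and fat, 31 of 48 genes passed, 18 higher and 13 lower in liver, beside 49.8% of all 22180 genes. Their median difference was 0.09, and that of all genes was 0.05. With depletion, 0 of the 38 tested genes passed in liver, 1 passed in inguinal fat and 0 passed in epididymal fat, beside 0.0708%, 0.197% and 0.0315% of the 12710 genes tested. At an unadjusted limma p under 0.05 there were 4, 3 and 4 such genes, beside 5.53%, 6.93% and 6.98% of all genes. The gene that passed in inguinal fat, Abca9, also passed in the average of both depots.

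Abca9 belongs to the ABCA6-like group of lipid transporter genes, which lie next to each other on chromosome 11 in the order Abca8b, Abca8a, Abca9, Abca6 and Abca5, with no other protein-coding gene between them. What they carry is little known, and the human ortholog of Abca9 has been described in macrophages. In inguinal fat Abca9 stood at 7.75 and 7.54 in Mgl2-DTR mice, against 9.23 and 9.39 in wild-type mice. In epididymal fat it stood at 8.02 and 7.54 in Mgl2-DTR mice, against 9.06 and 9.13 in wild-type mice. In liver it stood at 6.98 and 6.51 in Mgl2-DTR mice, against 6.25 and 6.17 in wild-type mice. All 4 Mgl2-DTR fat arrays lay below all 4 wild-type fat arrays, as did 1.43% of all genes, and both Mgl2-DTR livers lay above both wild-type livers.

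Abca9 fell in inguinal fat by 1.66 (SE 0.20), which is 3.16-fold (limma adjusted p = 0.00996). In epididymal fat the change was -1.31 (SE 0.20) and did not pass (limma adjusted p = 0.142). Averaged over both depots, Abca9 fell by 1.49 (SE 0.14; 2.80-fold; limma adjusted p = 0.00207), beside 0.323% of all genes passing in that average, and no other ABC gene passed there. The changes of the depots differed by -0.35 (inguinal minus epididymal, 95% interval -0.99 to 0.29), and no ABC gene passed that test, beside 0% of all genes by limma, 2.86% of which had an unadjusted p under 0.05. In liver the change was 0.54 (SE 0.20; limma adjusted p = 0.780). The liver change exceeded the mean fat change by 2.02 (SE 0.25; limma adjusted p = 0.0127), and Abca9 was the only ABC gene of 38 to pass this test, which 0.236% of all genes passed.

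The adjusted p of the inguinal fall depended on the arrays kept, while its size did not. Leaving out any 1 inguinal array gave a change of -1.77 to -1.56 with a limma adjusted p of 0.0617 or 0.0847 when Mgl2-DTR replicate 1 or 2 was left out and of 0.0735 or 0.123 when wild-type replicate 1 or 2 was left out. Without both arrays high in muscle genes the inguinal change was -1.69 (limma adjusted p = 0.334), the fat average was -1.50 (adjusted p = 0.0552) and the difference between liver and fat was 2.04 (adjusted p = 0.111). Without the 2 epididymal arrays that stood apart the fat average was -1.38 (adjusted p = 0.0151) and the difference between liver and fat was 1.92 (adjusted p = 0.0324), while the epididymal change was -1.11 (adjusted p = 0.972). The epididymal change passed by limma without wild-type replicate 2 (-1.28, adjusted p = 0.0224) or without Mgl2-DTR replicate 1 (-1.55, adjusted p = 0.00667), each of which leaves an arm with 1 array, whose spread is taken from the rest. The difference between liver and fat missed the threshold by limma without liver wild-type replicate 1 (adjusted p = 0.0752), without its wild-type replicate 2 (0.105) or without its Mgl2-DTR replicate 1 (0.0558).

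Macrophage genes moved with Abca9. The mean of 12 macrophage markers was 8.11 and 8.87 in Mgl2-DTR against 9.79 and 10.01 in wild-type inguinal fat, and 9.22 and 9.06 against 10.50 and 9.85 in epididymal fat. In liver it was 9.14 and 9.09 in Mgl2-DTR mice against 8.59 and 8.55 in wild-type mice. Of these 12 markers, all above the filter level in each tissue, 11 were lower in Mgl2-DTR inguinal fat and 12 were lower in epididymal fat, and 12 were higher in liver. In inguinal fat 3 of them passed by limma, all lower, the complement genes C1qa (-1.92, SE 0.18), C1qb (-1.94, SE 0.21) and C1qc (-2.03, SE 0.17). None passed in the other tissues by limma, where 8 in epididymal fat and 3 in liver had an unadjusted p under 0.05. The log2 of the summed marker level ranged from 12.14 to 12.90 in Mgl2-DTR and from 13.85 to 13.95 in wild-type inguinal fat, from 13.31 to 13.58 and from 14.12 to 14.86 in epididymal fat, and from 12.89 to 12.96 and from 12.31 to 12.42 in liver. The part of these markers in the change of Abca9 was not tested, and in bulk tissue fewer cells of a type and less RNA per cell cannot be told apart.

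**Figure D2:**
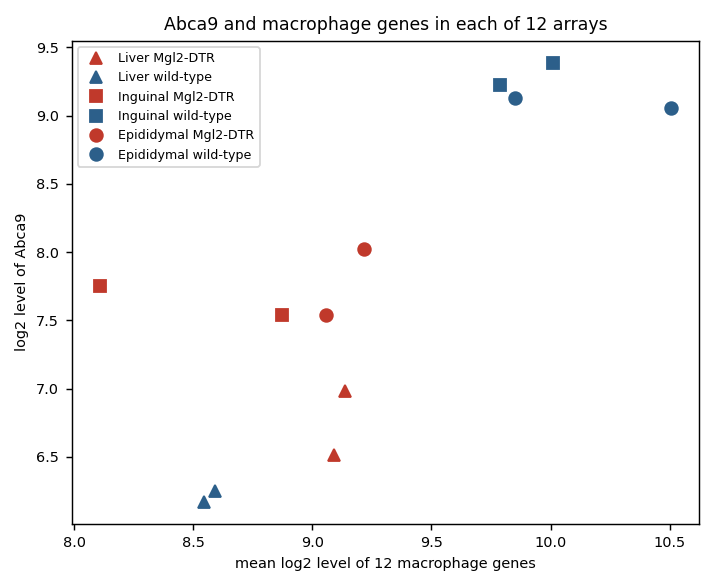
Log2 level of Abca9 (vertical axis) against the mean log2 level of 12 macrophage markers (horizontal axis), 1 point per array, with Mgl2-DTR arrays in red and wild-type arrays in blue and a symbol for each tissue. The 4 wild-type fat arrays lie at the upper right, with Abca9 at 9.06 to 9.39, the 4 Mgl2-DTR fat arrays have Abca9 at 7.54 to 8.02, and among livers the Mgl2-DTR arrays lie above and to the right of the wild-type arrays; tissue and genotype are shared by the points, so no correlation is given.

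The 250 bases before the annotated start of Abca9 are shown because Abca9 was the only ABC gene that passed with depletion. They lie at chr11:110168154-110168403 on the minus strand of GRCm38.p6, are taken from RefSeq, and are written 5′ to 3′ in the direction of the gene.
Abca9: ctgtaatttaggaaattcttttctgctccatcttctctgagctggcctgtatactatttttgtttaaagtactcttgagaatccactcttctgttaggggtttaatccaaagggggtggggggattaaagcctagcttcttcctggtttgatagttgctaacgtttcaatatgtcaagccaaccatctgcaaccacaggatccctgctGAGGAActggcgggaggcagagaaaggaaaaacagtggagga
The capitals mark GAGGAA, the purine-rich core of the motif of PU.1, a transcription factor of myeloid cells, at bases 42 to 37 before the start. The window is 44.4% G or C and holds 2 CG steps. GAGGAA, searched on both strands, occurs in 23.25% of the 32851 RefSeq windows of this length and in 14 of the 45 windows of ABC genes, which cover 38 of the 48. The motif was chosen with the sequence in view, and a match of these letters describes the window and shows no binding.

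None of the 4 neighbours of Abca9 passed in any tissue by limma or had an unadjusted p under 0.05. Abca6 stood at 7.42 and 7.21 in Mgl2-DTR against 7.40 and 7.81 in wild-type inguinal fat, and at 7.43 and 6.62 against 7.16 and 7.54 in epididymal fat, so the groups overlapped in both depots. Averaged over both depots its change was -0.31 (95% interval -0.72 to 0.10). The same average was 0.15 (-0.27 to 0.57) for Abca8a, 0.17 (-0.18 to 0.52) for Abca8b and 0.25 (-0.04 to 0.55) for Abca5, whose product sits in lysosomes and late endosomes, and the interval of Abca9 (-1.81 to -1.17) overlapped none of these. Across tissues the group was divided as well. Abca6 was higher in liver than in fat by 3.31 (SE 0.16; limma adjusted p = 7.67e-08) and Abca8b by 1.66 (SE 0.13), whereas Abca9 was lower by 1.98 (SE 0.12; limma adjusted p = 5.73e-07) and Abca5 by 0.38 (SE 0.11). Abca8a differed by -0.11 (95% interval -0.47 to 0.25) and did not pass. In liver, Abca8a stood at 8.51 and 7.82 in Mgl2-DTR against 8.51 and 8.61 in wild-type mice, where Mgl2-DTR replicate 2 alone lay low, with a change of -0.40 (95% interval -0.99 to 0.20).

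**Figure D3:**
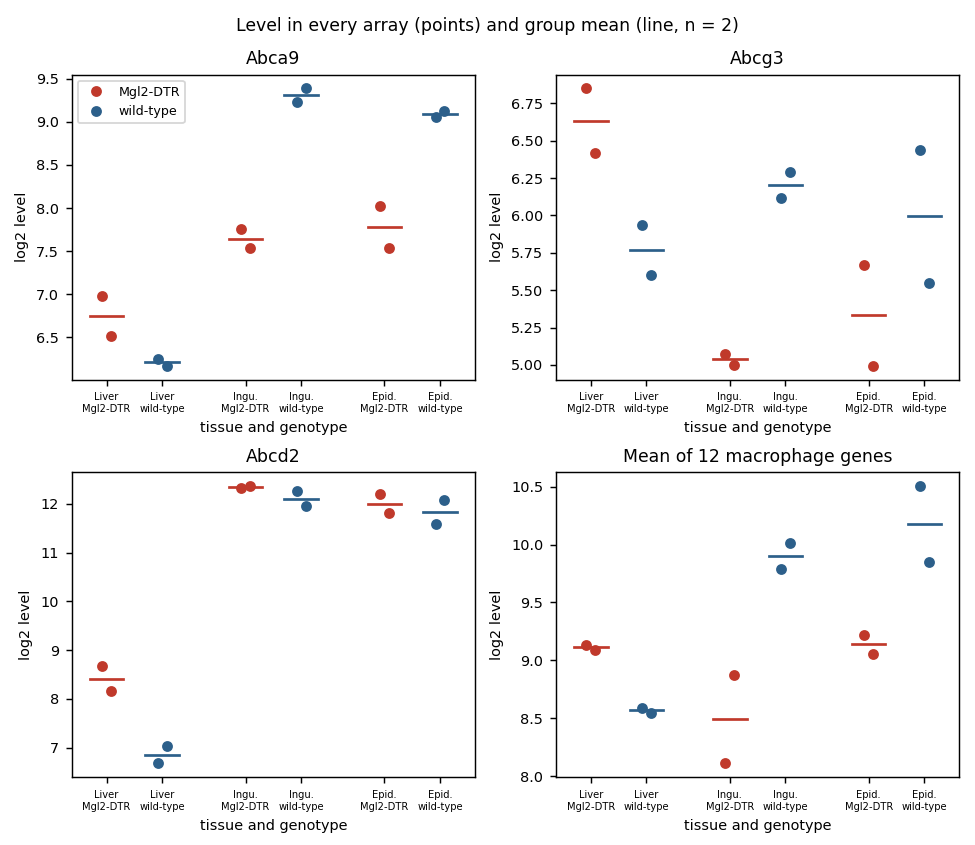
Log2 level of Abca9, Abcg3, Abcd2 and the mean of 12 macrophage markers in every array, with a point per array, a line at the group mean (n = 2), Mgl2-DTR in red and wild-type in blue for liver, inguinal and epididymal fat. Abca9 lies lower in Mgl2-DTR than in wild-type arrays of both fat depots and higher in liver, Abcg3 does so in inguinal fat and liver but overlaps in epididymal fat, and Abcd2 is farthest apart in liver, at 8.67 and 8.17 in Mgl2-DTR against 6.68 and 7.04 in wild-type mice.

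Abcg3 is a rodent relative of the drug and urate exporter Abcg2, and what it carries is not known. It stood at 5.08 and 5.0 in Mgl2-DTR inguinal fat, under the filter level, against 6.11 and 6.29 in wild-type inguinal fat. In epididymal fat it stood at 5.67 and 4.99 in Mgl2-DTR mice, against 6.44 and 5.55 in wild-type mice, and in liver at 6.85 and 6.42 in Mgl2-DTR mice, against 5.94 and 5.60 in wild-type mice. The groups lay apart in inguinal fat and in liver and overlapped in epididymal fat. Its mean was 5.62 in inguinal and 5.66 in epididymal fat, both under the filter level, and 6.20 in liver. It was thus tested on account of liver alone, and the size of its fat changes is limited by that level. None of its changes passed, with -1.17 in inguinal fat (SE 0.31; limma adjusted p = 0.479), -0.66 in epididymal fat (adjusted p = 0.715), 0.87 in liver (adjusted p = 0.761) and 1.78 for the liver change minus the fat change (SE 0.38; adjusted p = 0.203). That last value passed by limma without epididymal wild-type replicate 2 (adjusted p = 0.0195) and also when Mgl2-DTR replicate 1 was left out (0.0477), and so did the fat average of -0.91 (adjusted p = 0.0125 and 0.0492 without these arrays, against 0.229 with all). Without the 2 epididymal arrays that stood apart the fat average was -0.52 (limma adjusted p = 0.523) and the liver change minus the fat change was 1.39 (adjusted p = 0.121), and without both arrays high in muscle genes the adjusted p-values were 0.920 and 0.649. Its group means, like those of Abca9, moved to the same side as the macrophage markers in each tissue, and the part of those markers was not tested.

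Abcd2 encodes a peroxisomal transporter of very long-chain fatty acids as CoA esters and is a gene of fat cells in mice. In liver it stood at 8.67 and 8.17 in Mgl2-DTR mice, against 6.68 and 7.04 in wild-type mice. The groups lay apart, the change was 1.56 (SE 0.24; 2.94-fold), and it missed the threshold (limma adjusted p = 0.0863) but passed after cyclic loess within each tissue (1.53, adjusted p = 0.0348). Over the alternatives the change ran from 1.31 to 1.81 and its limma adjusted p from 0.0348 to 0.369, with 0.292 when both inguinal arrays high in muscle genes were left out. In fat it stood at 12.32 and 12.36 in Mgl2-DTR against 12.27 and 11.95 in wild-type inguinal fat, and at 12.20 and 11.82 against 11.58 and 12.09 in epididymal fat, with changes of 0.23 and 0.17. Over the 8 fat arrays its lowest, median and highest values were 11.58, 12.14 and 12.36, and liver was lower than fat by 4.43 (SE 0.15; limma adjusted p = 5.31e-09). The liver change exceeded the fat change by 1.36 (SE 0.30; limma adjusted p = 0.213). Adipocyte markers in the same livers had means of 5.79 and 5.91 in Mgl2-DTR against 6.08 and 6.02 in wild-type mice, and only 5 of the 8 lay above the filter level there. Kupffer cell markers had means of 9.43 and 9.32 in Mgl2-DTR against 8.71 and 8.38 in wild-type livers. All 5 of 5 were higher and none passed the threshold by limma, 4 with an unadjusted p under 0.05, among them the scavenger receptor Marco (1.30, SE 0.20; adjusted p = 0.0863). The part of the adipocyte and of the Kupffer cell markers in the value of Abcd2 was not tested.

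The other peroxisomal and lysosomal members showed no such difference. Abcd3, a peroxisomal transporter used in bile acid synthesis, stood at 11.03 and 10.60 in Mgl2-DTR against 11.12 and 10.86 in wild-type livers, and Abcd4, which takes part in releasing vitamin B12 from lysosomes, at 7.27 and 7.27 against 6.96 and 7.61, so both overlapped. Of 15 tested genes of peroxisomal fatty acid oxidation, 4 were higher and 11 lower in Mgl2-DTR livers, with a median of -0.06 against 0.01 over all genes, and none passed by limma or had an unadjusted p under 0.05. The lowest p among them belonged to Ppara, the fatty acid receptor that drives the pathway (-0.43, SE 0.21), and to the carrier protein gene Scp2 (-0.36, SE 0.18). In fat 12 of these 15 were higher in inguinal and 8 in epididymal fat. None passed by limma, and 1 in each depot had an unadjusted p under 0.05. The fatty acid transporter gene Slc27a2 was at 1.16 in epididymal fat (SE 0.28, limma adjusted p = 0.594). Slc27a2 exceeded the filter level there only in Mgl2-DTR replicate 2 (6.11), the array high in duct genes. Its wild-type values lay under that level, which limits the size of the change. The part of the duct tissue in this change was not tested.

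**Figure D4:**
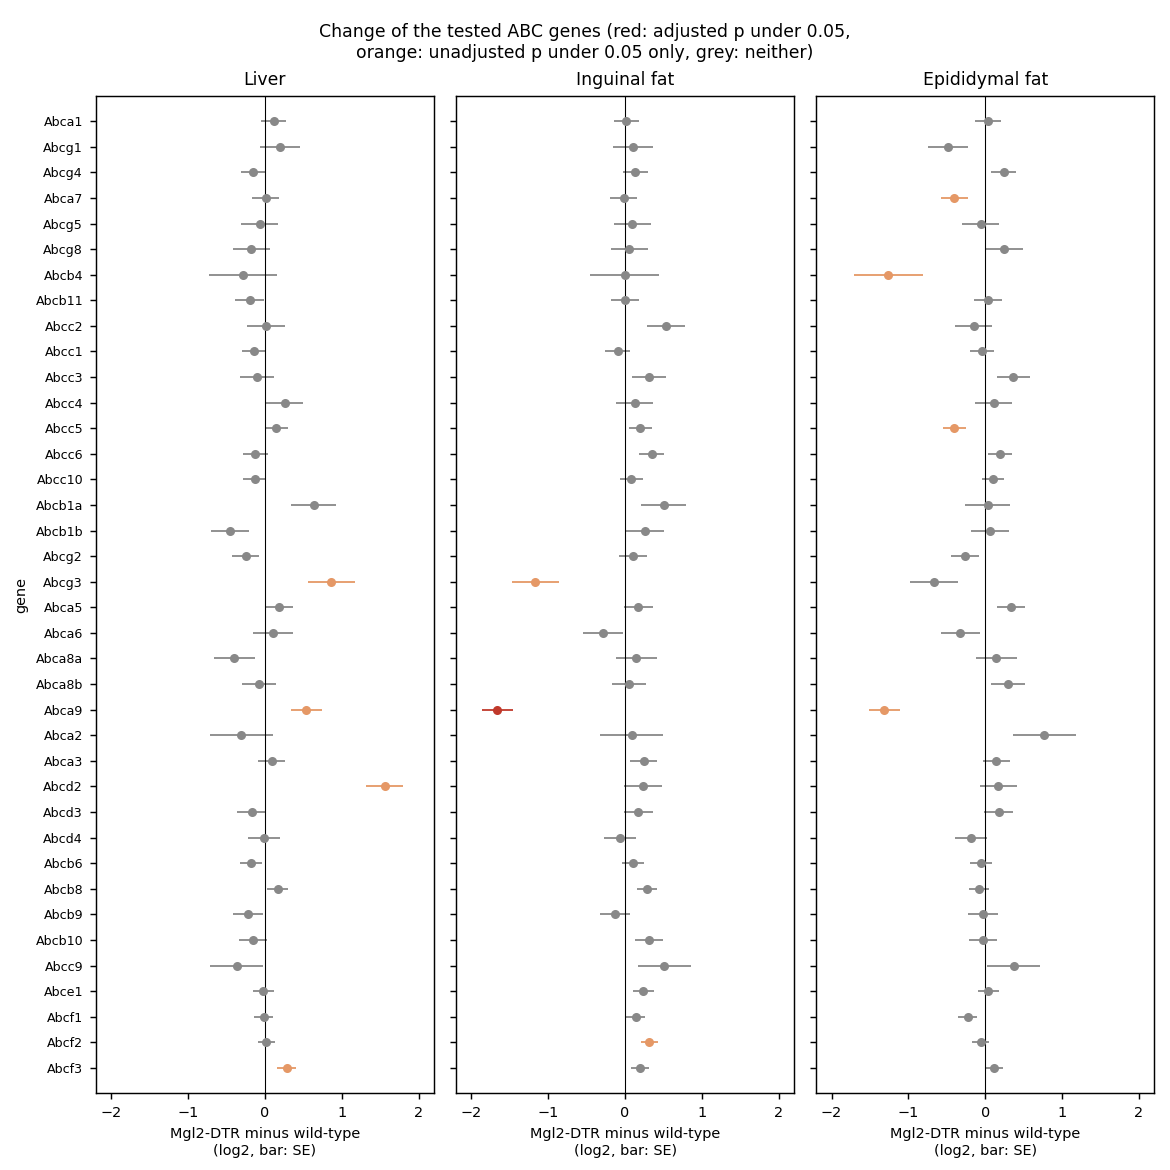
Change with depletion (Mgl2-DTR minus wild-type, log2) of the 38 tested ABC genes in liver, inguinal fat and epididymal fat, with points for fitted changes, bars for the SE, red for a limma adjusted p under 0.05, orange for an unadjusted p under 0.05 alone and grey for neither. Abca9 in inguinal fat is the only red point, and Abcd2 in liver and Abca9 in epididymal fat are the orange points farthest from 0.

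No sterol efflux gene passed between genotypes by limma, and 1 of the 4, Abca7 in epididymal fat, had an unadjusted p under 0.05. All 4 were lower in liver than in fat, Abcg1 by 1.38 (SE 0.16), Abcg4, a close relative of Abcg1, by 0.73 (SE 0.10), Abca1 by 0.42 (SE 0.10) and Abca7 by 0.34 (SE 0.11). The liver means of Abcg4 (5.38) and Abca7 (5.67) were under the filter level, which limits the size of both differences. Abca1, which loads cholesterol and phospholipid onto apolipoprotein A-I, stood at 10.40 and 10.41 in Mgl2-DTR against 10.50 and 10.28 in wild-type inguinal fat. It stood at 10.51 and 10.34 against 10.24 and 10.55 in epididymal fat and at 10.20 and 9.88 against 10.01 and 9.85 in liver. Genotypes overlapped in every tissue, and the 95% intervals of the change ran from -0.36 to 0.40 in inguinal fat, from -0.35 to 0.41 in epididymal fat and from -0.26 to 0.49 in liver. Abcg1, which moves cholesterol to mature high-density lipoprotein, stood at 8.61 and 8.52 in Mgl2-DTR against 9.50 and 8.60 in wild-type epididymal fat. The high value belonged to the array highest in macrophage genes, and the change of -0.49 did not pass (limma adjusted p = 0.747). It was -0.94 and passed without wild-type replicate 2 (adjusted p = 0.0301) and was 0.00 without the 2 arrays that stood apart. Abcg1 stood at 8.34 and 8.56 against 8.38 and 8.30 in inguinal fat and at 7.52 and 7.11 against 7.19 and 7.04 in liver, overlapping in both. Abca7, a phospholipid transporter linked to phagocytosis, was lower in epididymal fat, at 5.95 and 5.65 in Mgl2-DTR against 6.40 and 6.01 in wild-type mice (-0.40, SE 0.17; limma adjusted p = 0.710), with wild-type replicate 1 again the highest.

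Genes around these exporters did not pass either. Of 9 other genes driven by the sterol receptor LXR, 5 were higher in inguinal fat, 2 in epididymal fat and 7 in liver, with medians of 0.03, -0.17 and 0.13 against 0.10, 0.00 and 0.01 over all genes. None passed by limma, and 1, 2 and 0 had an unadjusted p under 0.05. Pltp, the phospholipid transfer protein, was at -0.87 in inguinal fat (SE 0.33) and -1.07 in epididymal fat (SE 0.33), and Apoe, the apolipoprotein of macrophages and liver, at -0.55 in epididymal fat (SE 0.16), with limma adjusted p-values of 0.678, 0.688 and 0.688. Of 15 genes of cholesterol synthesis and uptake, 14 were higher in inguinal fat, 4 in epididymal fat and 13 in liver, with medians of 0.21, -0.27 and 0.14, and none passed by limma, with 0, 1 and 1 at an unadjusted p under 0.05. The lowest p belonged to 2 enzymes of the mevalonate pathway, Mvd at 0.64 in liver (SE 0.27; limma adjusted p = 0.882) and Mvk at -0.40 in epididymal fat (SE 0.16; adjusted p = 0.710). For some of these genes the epididymal direction depended on wild-type replicate 1, the array highest in macrophage genes. Sqle stood there at 7.87, against 6.62 in wild-type replicate 2 and 6.74 and 7.10 in Mgl2-DTR mice. Cyp51 stood there at 8.48, against 7.18 in wild-type replicate 2 and 7.41 and 7.44 in Mgl2-DTR mice. Others, such as Mvk (7.13 and 6.91 against 7.54 and 7.30), lay under both wild-type values. Of 8 genes for lipoproteins and sterol acceptors, 6, 3 and 4 were higher in the same order and 1 in each tissue had an unadjusted p under 0.05, with Lcat, which esterifies cholesterol on lipoprotein, at 0.39 in inguinal fat (SE 0.14; adjusted p = 0.662) and the scavenger receptor Cd36 at 0.43 in liver (SE 0.15; adjusted p = 0.761).

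The 5 canalicular exporters, which form bile, were all higher in liver than in fat, and none passed with depletion. Their differences, from 3.36 to 7.82, stood beside those of Abcc6 (3.63), Abca6 (3.31) and Abcc3 (2.99) among the 18 ABC genes higher in liver. The means of the canalicular genes over the 8 fat arrays were all under the filter level, so the size of each difference is limited by that floor. Abcb11, the bile salt export pump, stood at 11.43 and 11.37 in Mgl2-DTR and 11.54 and 11.65 in wild-type livers, against a lowest, median and highest value of 3.38, 3.68 and 3.91 over the 8 fat arrays. Liver exceeded fat by 7.82 (SE 0.11; limma adjusted p = 2.81e-11). Abcc2, which secretes conjugated bilirubin and drugs into bile, stood at 11.21 and 11.16 in Mgl2-DTR and 11.25 and 11.08 in wild-type livers, against 4.28, 4.82 and 5.21 in fat, a difference of 6.44 (SE 0.15). Abcb4, which brings phosphatidylcholine to the outer leaflet for bile, stood at 10.36 and 9.99 in Mgl2-DTR and 10.56 and 10.36 in wild-type livers, against 4.63, 5.55 and 6.97 in fat, a difference of 4.65 (SE 0.27). For these 3 genes every liver value lay above every fat value, in a comparison that 49.8% of all genes passed by limma.

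Abcg5 and Abcg8 encode the 2 parts of a sterol exporter and are neighbours on chromosome 17, read in opposite directions from starts 109 bases apart. Abcg8 stood at 9.40 and 8.54 in Mgl2-DTR and 9.11 and 9.18 in wild-type livers, against 4.58, 4.81 and 5.03 over the fat arrays, and liver exceeded fat by 4.23 (SE 0.15; limma adjusted p = 7.49e-09). Abcg5 stood at 8.58 and 7.82 in Mgl2-DTR and 8.31 and 8.22 in wild-type livers, against 4.67, 4.82 and 5.14 in fat, a difference of 3.36 (SE 0.15; limma adjusted p = 4.16e-08). Both genes were lowest of the 4 livers in Mgl2-DTR replicate 2 and highest in Mgl2-DTR replicate 1.

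The sequences before Abcb11 and between Abcg5 and Abcg8 are shown because these are the regions next to the largest differences between liver and fat and next to a gene pair that shares its tissue pattern. Both are from RefSeq, GRCm38.p6, at chr2:69342617-69342866 on the minus strand and at chr17:84683012-84683120 on the plus strand, written 5′ to 3′.
Abcb11: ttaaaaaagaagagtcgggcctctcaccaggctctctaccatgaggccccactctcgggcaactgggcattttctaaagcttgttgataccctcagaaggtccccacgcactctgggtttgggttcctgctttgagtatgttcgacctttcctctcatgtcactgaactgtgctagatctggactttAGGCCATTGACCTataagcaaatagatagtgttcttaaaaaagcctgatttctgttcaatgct
Abcg5 and Abcg8: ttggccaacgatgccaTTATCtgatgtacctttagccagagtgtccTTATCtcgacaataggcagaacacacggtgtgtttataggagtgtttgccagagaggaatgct
In Abcb11 the capitals mark an inverted repeat, AGGNCA and TGACCT with 1 base between them, of the kind bound by the bile acid receptor FXR, at bases 63 to 51 before the start. Searched on both strands, it occurs in 11 of 32851 windows of 250 bases (0.03%) and in 1 of the 45 windows of ABC genes. Between Abcg5 and Abcg8 the capitals mark TTATC, which is the GATA core GATAA on the other strand, at bases 17 to 21 and 47 to 51. It occurs in 9.36% of RefSeq windows of 109 bases, and at least 2 copies occur in 0.79%. Both motifs were chosen with the sequences in view, and the matches show no binding.

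With depletion the canalicular genes gave 1 higher and 4 lower values in liver and none passed by limma or had an unadjusted p under 0.05, with a median of -0.18 against 0.01 over all genes. The changes were -0.20 for Abcb11 (95% interval -0.61 to 0.22), 0.02 for Abcc2, -0.28 for Abcb4, -0.18 for Abcg8 and -0.07 for Abcg5 (95% interval -0.61 to 0.48). Abcg5 and Abcg8 were at 0.31 and 0.25 without Mgl2-DTR replicate 2. In epididymal fat Abcb4 stood at 5.35 and 4.63 in Mgl2-DTR against 6.97 and 5.53 in wild-type mice. Only wild-type replicate 1, the array highest in macrophage genes, lay above the filter level, which limits the size of the change. The change was -1.26 (SE 0.44; limma adjusted p = 0.710). It was -1.98 without wild-type replicate 2, which leaves an arm with 1 array, and -0.18 without the 2 arrays that stood apart. In inguinal fat Abcb4 stood at 6.11 and 5.32 against 5.56 and 5.88 and overlapped. Abcc2 in inguinal fat, at 5.21 and 5.06 against 4.93 and 4.28, lay under the filter level in every array.

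Other genes that handle bile acids did not pass either. Of 11 tested genes of bile acid uptake, synthesis and control, 6 were higher and 5 lower in liver, with a median of 0.01 against 0.01 over all genes. None passed by limma, and 5 of the 11 had an unadjusted p under 0.05, beside 5.53% of all genes tested. The uptake transporter genes at its ends were Slco1a4, at 8.83 and 9.72 in Mgl2-DTR against 7.83 and 7.61 in wild-type livers (1.56, SE 0.26; limma adjusted p = 0.113), and Slco1a1, at 9.30 and 8.44 against 9.96 and 10.30 (-1.26, SE 0.28; limma adjusted p = 0.361). The genotypes lay apart for both genes and neither passed. They also lay apart for the rest of those with an unadjusted p under 0.05. These were Cyp8b1 (-1.03, SE 0.23), Cyp7a1 (-0.88, SE 0.21) and Nr0b2 (0.37, SE 0.15), with limma adjusted p-values of 0.361, 0.381 and 0.847. Across tissues 11 of 12 genes of this list were higher in liver, among them the uptake transporters Slco1b2 (8.59) and Slc10a1 (7.36) and Cyp7a1, the rate-limiting enzyme of bile acid synthesis (6.82). The fat means of these 3 genes were all under the filter level, which limits the sizes. Of 11 xenobiotic receptors and their targets, 6 were higher and 5 lower with depletion in liver and none passed by limma, 1 with an unadjusted p under 0.05, with the aryl hydrocarbon receptor Ahr at 0.40 (SE 0.15; adjusted p = 0.803) and Nqo1 at 0.41 (SE 0.19; adjusted p = 0.957).

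**Figure D5:**
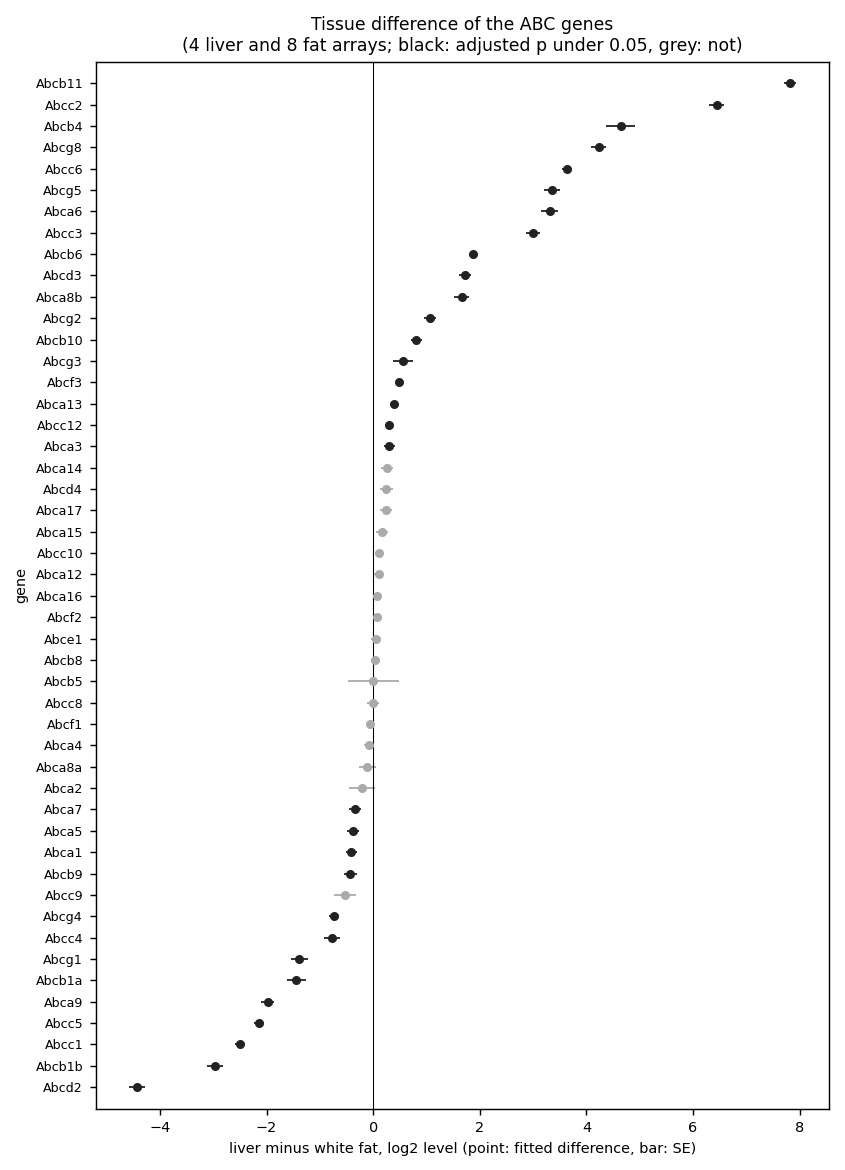
Liver minus white fat log2 difference of each of the 48 ABC genes, from 4 liver and 8 fat arrays, with points for fitted differences, bars for the SE, black for a limma adjusted p under 0.05 and grey for the rest. Abcb11 (7.82), Abcc2 (6.44), Abcb4 (4.65) and Abcg8 (4.23) form the top of the plot and Abcd2 (-4.43), Abcb1b (-2.98) and Abcc1 (-2.51) the bottom, with 18 genes past the threshold higher and 13 lower in liver.

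Exporters of organic anions divided between the tissues. Abcc6, which releases ATP from hepatocytes and is mutated in pseudoxanthoma elasticum, stood at 9.20 and 9.05 in Mgl2-DTR and 9.14 and 9.35 in wild-type livers, against a lowest, median and highest value of 5.19, 5.57 and 5.84 in fat, and liver was higher by 3.63 (SE 0.10; limma adjusted p = 1.01e-09), a size limited by the filter level because the fat mean was 5.55. Abcc3, which returns bile acids and glucuronides to blood, stood at 10.70 and 10.52 in Mgl2-DTR and 10.73 and 10.70 in wild-type livers, against 7.23, 7.61 and 8.44 in fat, and was higher by 2.99 (SE 0.13). The opposite held for Abcc1, an exporter of glutathione conjugates and leukotriene C4. It stood at 6.29 and 6.11 in Mgl2-DTR and 6.18 and 6.51 in wild-type livers, against 8.66, 8.77 and 8.95 in fat, and was lower in liver by 2.51 (SE 0.10; limma adjusted p = 1.46e-08). Abcc5, an exporter of cyclic nucleotides, stood at 6.42 and 6.28 in Mgl2-DTR and 6.13 and 6.27 in wild-type livers, against 7.92, 8.47 and 8.76 in fat, and was lower by 2.15 (SE 0.09). Abcc4, which exports bile acids and cyclic nucleotides, was lower in liver by 0.78 (SE 0.15), and Abcc10 differed by 0.11 (95% interval -0.09 to 0.31).

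None of the 6 tested organic anion exporters passed with depletion in any tissue by limma, and 1 had an unadjusted p under 0.05, in epididymal fat. Abcc5 in epididymal fat stood at 8.23 and 7.92 in Mgl2-DTR against 8.58 and 8.37 in wild-type mice, groups apart, with a change of -0.40 (SE 0.15; limma adjusted p = 0.710) that was -0.14 without the 2 arrays that stood apart. Abcc3 in the same depot stood at 7.74 and 8.44 against 7.89 and 7.56 and overlapped, its highest value being that of the array high in duct genes. Abcc6 in inguinal fat stood at 5.84 and 5.74 against 5.45 and 5.45, near the filter level, with a change of 0.35 (SE 0.16; limma adjusted p = 0.730). Abcc4 stood at 7.19 and 7.18 against 6.95 and 7.17 in inguinal fat, at 7.0 and 7.52 against 7.05 and 7.24 in epididymal fat, and at 6.29 and 6.74 against 5.98 and 6.54 in liver. Its values in inguinal fat barely lay apart, and those in the other tissues overlapped.

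Among multidrug exporters, the P-glycoprotein genes belonged to fat. Abcb1b stood at 4.81 and 4.44 in Mgl2-DTR and 4.73 and 5.42 in wild-type livers, against a lowest, median and highest value of 6.99, 7.92 and 8.52 in fat, and liver was lower by 2.98 (SE 0.15; limma adjusted p = 1.27e-07), a size limited by the filter level. Abcb1a stood at 7.11 and 6.31 in Mgl2-DTR and 5.90 and 6.25 in wild-type livers, against 7.46, 7.83 and 8.46 in fat, a difference of -1.44 (SE 0.18). Both genes and Abcb4 lie next to each other on chromosome 5, and Abcb4 differed in the opposite direction. Abcg2 was higher in liver by 1.07 (SE 0.11). With depletion in liver, Abcb1b was at -0.45 (SE 0.25; limma adjusted p = 0.994) with overlapping groups, Abcg2 was at -0.25 (8.23 and 8.31 in Mgl2-DTR against 8.66 and 8.38 in wild-type livers), and Abcb1a was at 0.63 with groups apart (SE 0.29; limma adjusted p = 0.927).

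Abcb1b was the only ABC gene that passed between the fat depots. It stood at 7.58 and 7.23 in Mgl2-DTR and 6.99 and 7.32 in wild-type inguinal fat, against 8.52 and 8.30 in Mgl2-DTR and 8.26 and 8.45 in wild-type epididymal fat. All 4 inguinal arrays lay below all 4 epididymal arrays, and the difference was -1.10 (SE 0.17; 2.14-fold lower in inguinal fat; limma adjusted p = 0.00880), in a comparison that 4.09% of all genes passed. It was -1.0 in Mgl2-DTR arrays alone and -1.20 in wild-type arrays alone, where it no longer passed by limma (adjusted p = 0.0856 and 0.183). Mesothelium markers moved with it between depots, with means of 5.07 to 5.51 in inguinal and 7.68 to 8.51 in epididymal fat, and their part in the difference was not tested. Abcc9, the sulfonylurea receptor of muscle-type potassium channels and of pericytes, was the gene farthest in the other direction (0.82, SE 0.24; limma adjusted p = 0.0927), and the range of its values overlapped between depots.

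Abcc9 also lay higher in Mgl2-DTR inguinal fat, at 10.02 and 9.83 against 9.28 and 9.56 in wild-type mice. In each genotype the higher value was that of the array high in skeletal muscle genes. The change was 0.51 (SE 0.34; limma adjusted p = 0.792). Kcnj8, the pore with which it forms a channel, was at 0.70 there (SE 0.32; limma adjusted p = 0.729). In the arrays high in skeletal muscle genes Kcnj8 was higher in Mgl2-DTR (7.64 against 7.04) but lower in wild-type mice (6.36 against 6.93). In liver Kcnj8 was also at 0.70 (SE 0.32; limma adjusted p = 0.915), while Abcc9 overlapped (9.02 and 8.08 in Mgl2-DTR against 8.85 and 8.97). The mean of 7 pericyte and smooth muscle markers was 9.52 and 9.21 in Mgl2-DTR against 9.0 and 9.05 in wild-type inguinal fat. There 7 of 7 were higher and none passed the threshold by limma, 1 with an unadjusted p under 0.05. The part of these markers and of the skeletal muscle genes in the values of Abcc9 was not tested.

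Among the ABCB genes of mitochondria and lysosomes, 2 of 4 were higher in liver and 1 was lower. Abcb6, a porphyrin transporter, was higher in liver than in fat by 1.88 (SE 0.09; limma adjusted p = 6.43e-08), and Abcb10, which supports heme synthesis in mitochondria, by 0.81 (SE 0.11). The lysosomal peptide transporter gene Abcb9 was lower by 0.43 (SE 0.12), and Abcb8, a mitochondrial member, differed by 0.03 (95% interval -0.15 to 0.21). With depletion these 4 genes gave 1, 3 and 0 higher values in liver, inguinal and epididymal fat, and none passed by limma or had an unadjusted p under 0.05. Among 10 genes of iron, heme and iron-sulfur handling in mitochondria, 7 were higher in liver than in fat and 1 was lower, among them the heme synthesis genes Cpox (2.98) and Urod (0.87) as higher, and none passed with depletion by limma, 1 in inguinal fat with an unadjusted p under 0.05.

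The soluble members were nearly flat between tissues. Abce1, which recycles ribosomes, differed between liver and fat by 0.05 (95% interval -0.14 to 0.23), Abcf1, which takes part in the start of translation, by -0.06 (-0.23 to 0.10) and Abcf2 by 0.06 (-0.09 to 0.22), while Abcf3 was higher by 0.49 (SE 0.07; limma adjusted p = 0.000330). With depletion all 4 lay apart and higher in inguinal fat, where 36.5% of all genes did so, with Abcf2 at 8.86 and 8.82 in Mgl2-DTR against 8.54 and 8.50 in wild-type mice (0.32, SE 0.11; limma adjusted p = 0.662). Most genes lay higher there. The median over all genes was 0.10, and 30 of the 38 ABC genes were higher, with a median of 0.13, against 24 after quantile normalization and 23 after cyclic loess, when the median over all genes was 0.03 and 0.00.

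The remaining ABCA members gave no passing change. Abca2, a transporter of endosomes and lysosomes, stood at 7.67 and 9.27 in Mgl2-DTR against 7.61 and 7.79 in wild-type epididymal fat. The high value is from the array high in duct genes, and the change of 0.77 (SE 0.41; limma adjusted p = 0.748) was -0.03 without that array and 1.57 without Mgl2-DTR replicate 1 (adjusted p = 0.0108). Abcb5, under the filter level in every tissue mean, showed the same pattern, at 3.78 and 7.13 against 3.66 and 3.70, and so did Cftr, an ABC chloride channel named outside the symbol rule, at 4.69 and 6.00 against 3.66 and 4.33. The part of the duct tissue in these values was not tested. Abca5 in the same depot stood at 6.79 and 7.14 against 6.40 and 6.86 and overlapped. Abca3, which fills the lamellar bodies of lung cells with surfactant lipid, lay between 8.17 and 8.92 in all 12 arrays and was higher in liver by 0.30 (SE 0.11; limma adjusted p = 0.0404).

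The peptide transporters of antigen presentation, Tap1 and Tap2, are ABC proteins outside the symbol rule. Tap1 stood at 8.51 and 8.48 in Mgl2-DTR against 8.24 and 8.10 in wild-type livers (0.32, SE 0.17; limma adjusted p = 0.994) and was higher in inguinal than in epididymal fat by 0.53 (SE 0.12; limma adjusted p = 0.0424). Tap2 stood at 7.06 and 6.54 in Mgl2-DTR against 6.63 and 6.94 in wild-type livers and overlapped (0.01, SE 0.20). All 8 tested genes of class I peptide loading were higher in Mgl2-DTR livers, with a median of 0.16 against 0.01 over all genes, and none passed by limma, 1 with an unadjusted p under 0.05. The lowest p belonged to Psmb9, a subunit of the immunoproteasome (0.41, SE 0.14; limma adjusted p = 0.737), and to Tapbpl, a peptide editor (0.29, SE 0.13; limma adjusted p = 0.908).

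Over the 38 tested genes, values of the genotypes lay apart for 18 in liver, 18 in inguinal fat and 11 in epididymal fat, beside 34.4%, 46.9% and 29.5% of all genes tested. In liver 16 were higher and 22 lower, with a median of -0.04 against 0.01 over all genes. In epididymal fat 20 were higher and 18 lower, with a median of 0.03 against 0.00 over all genes. Replicates of the ABC genes differed with an SD of 0.45 in Mgl2-DTR and 0.44 in wild-type mice for epididymal fat and of 0.24 to 0.31 in the other groups, which the fit pools into 1 estimate per gene.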

How the data were processed

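RNA of liver, inguinal fat and epididymal fat was labelled with the GeneChip WT PLUS kit and hybridised to 12 Affymetrix arrays, 2 for each of 6 groups, per the labels' protocols. The authors deposited log2 levels, with medians alike over the arrays; how background, normalization and summarization were done is not given in the sources here. The submitters' processing notes name limma. Of 41345 probes, 23521 carried 1 gene symbol in the platform annotation, 1814 carried several and 16010 were not listed, and the brightest single-symbol probe stood for each of 22180 genes. Each ABC gene had a single such probe.

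A cell-means model over the 12 arrays was fitted (lmFit and eBayes of limma 3.58.1, R 4.3.3), with 6 residual degrees of freedom and Benjamini-Hochberg adjustment over all genes tested at a threshold of 0.05. Depletion was tested for the 12710 genes whose mean exceeded 5.71, the median of all values, in at least 1 tissue, and tissue levels for all 22180 genes. The script was tested on simulated data. Alternatives changed the filter, normalization, variance moderation, array weights, block, arrays and threshold. The crossed block and leaving out 2 epididymal arrays were added after the data were seen.

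The genes and lists were chosen with earlier results of these data known. Values in every array are given for ABC genes called with depletion, for the 3 with the smallest p in each direction and tissue, for Abca9, Abcd2 and 9 sterol and bile exporters, and for the 6 largest called tissue differences in each direction. Of each other list up to 4 genes that passed, or otherwise those with the smallest p, are named in the comparison described. Abca7, Abcb5, Abcc9, Abcd3, Abcd4 and Cftr were chosen for array values after their values were seen, as were Tap1 and Tap2 in liver and the remaining exporters, ABCB, ABCE and ABCF members that are named with differences alone. The precision of all values is limited by 2 arrays per group.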

Additional observations from a re-analysis of the deposited data

Results flagged for a closer look

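The change of Abca9 with depletion differed between liver and fat, by the test of the difference itself. The change in liver exceeded the mean change of the fat depots by 2.02 (SE 0.25; 95% interval 1.47 to 2.58; limma adjusted p = 0.0127), with both Mgl2-DTR livers above both wild-type livers and all 4 Mgl2-DTR fat arrays below all 4 wild-type fat arrays. Over the alternatives the adjusted p by limma ran from 0.00218 to 0.111.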

How the results depend on the processing

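Counts of ABC genes that passed with depletion depended on single arrays. The count in inguinal fat, 1, was 0 with the inguinal arrays alone, 0 with both fat depots alone and 0 without the 2 arrays high in muscle genes, and 0 to 1 when 1 array was left out. In epididymal fat it was 0 with all arrays and 0 to 3 when 1 was left out. In liver it was 0, against 1 (Abcd2) after cyclic loess and 1 at an adjusted p under 0.10, and 0 to 0 when 1 was left out. In the fat average it was 1, against 0 without the muscle-bearing arrays and 1 to 3 when 1 array was left out, and for the liver change minus the fat change it was 1, against 0 and 0 to 2. Between depots 1 gene passed in level, against 0 in wild-type arrays only, 0 in Mgl2-DTR arrays only, 3 at an adjusted p under 0.10 and 1 to 3 when 1 array was left out. Between liver and fat the count was 31 and ran from 25 to 34. The cause of these shifts was not tested, except that fewer arrays leave less information. Where an arm keeps 1 array, its spread is taken from the rest.

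Some changes that did not pass changed sign, among them those of Abca2 (0.77 with all arrays) and Abcg1 (-0.49) in epididymal fat. Without the 2 epididymal arrays that stood apart the epididymal change was -0.12 for Abca2, -0.077 for Abca5, -0.044 for Abca1, -0.24 for Abcc4 and 0.0030 for Abcg1. In inguinal fat Abca1 was at -0.065 after quantile normalization, -0.092 after cyclic loess and -0.088 without the muscle-bearing arrays. When 1 array was left out, the epididymal change ran from -0.029 to 1.57 for Abca2, -0.084 to 0.42 for Abcd2, -0.13 to 0.19 for Abca1 and -0.15 to 0.37 for Abcc4. The inguinal change ran from -0.093 to 0.13 for Abca1, -0.0030 to 0.22 for Abcg1 and -0.40 to 0.39 for Abcb4. The liver change ran from -0.047 to 0.27 for Abca1, -0.012 to 0.40 for Abcg1, -0.44 to 0.31 for Abcg5, -0.61 to 0.25 for Abcg8, -0.068 to 0.10 for Abcc2 and -0.023 to 0.54 for Abcc4. None of these genes passed with all arrays by limma in the tissue named.

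The labels do not say whether arrays of 1 number in the 3 tissues come from 1 animal, and the numbers were not taken to pair the samples. Deviations of same-numbered arrays of the genotypes correlated at 0.05 in epididymal fat, -0.12 in inguinal fat and 0.09 in liver, and those of 1 genotype between tissues at -0.01 to 0.12. With the replicate number as a block the counts of ABC genes were 0 in epididymal fat, 1 in inguinal fat, 0 in liver, 1 in the fat average, 0 and 1 for the differences of changes, 31 between liver and fat and 1 between depots, the same as without it, and over all genes it moved the liver count to 5, against 9. With the pairing of the inguinal arrays crossed, the count in inguinal fat was 1 ABC gene and 30 genes in all. With genotype and number as a random block, as if 1 number were 1 animal, the ABC counts were the same as without it in all 8 comparisons, and the adjusted p of Abca9 by limma was 0.0022 in the fat average and 0.0115 for the liver change minus the fat change.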
